A study of Mus musculus with 8 samples.

Results

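The 10 genes described here encode transcription factors used to tell mesenchymal cells apart: Lhx2, Hand2, Tcf21, Tcf4, Foxf1, Foxf2, Foxl1, Gata4, Gata6 and Osr1. They were taken by name from the 30395 gene identifiers listed for each library, of which 16446 passed a filter of at least 1 CPM (reads scaled to a library total of 1000000) in at least 2 of 8 libraries. All 10 were found and passed it, Foxf2 and Osr1 only through Gli1+ libraries and Foxl1 only through 1 library of each population after injury. Of other genes tested below, Hand1, Lhx9, Isl1, Lmo1, Foxq1, Foxp2, Osr2, Gli1 and Gli2 would not have passed it on stellate libraries alone. Msc would not have passed it on Gli1+ libraries alone. Calls of such genes toward the population that carried them through the filter are not independent of it. The study compared RNA of sorted mesenchymal cells of mouse liver in 4 groups of 2 libraries: Gli1+ peribiliary mesenchymal cells 5 d after ligation of the bile duct (BDL), which stops bile from leaving the liver, Gli1+ cells of uninjured mice, stellate cells 5 d after BDL, and stellate cells of uninjured mice. Stellate cells are the vitamin A storing pericytes of the liver sinusoid, and peribiliary mesenchymal cells surround the bile ducts. All groups came from livers of mice 8 weeks old, with the strain given as Mixed (C57BL/6, SWR/J) and the genotype as Gli1:CreER+/-; Ai9+/-, in which an inducible Cre under Gli1 control can switch on a red reporter, so the Gli1+ label rests on that promoter. How the Cre was induced and how cells were gated is not stated in the labels. The labels number the libraries of a group 1 and 2 and do not name the animals behind them; p-values therefore cover the spread from library to library, part or all of which may be technical.

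Connective tissue cells keep a memory of the embryonic tissue they came from in sets of transcription factors that stay on in the adult. Much of the liver mesenchyme descends from the septum transversum and the mesothelium, and the factors described here belong to families with known parts in such mesenchyme: LIM homeodomain proteins, basic helix-loop-helix (bHLH) proteins that bind E-box sequences as dimers, forkhead proteins, GATA zinc finger proteins and the odd-skipped zinc finger proteins. In mouse liver Lhx2 and Gata4 are known for holding stellate cells in their resting state, and Foxf1 is a Hedgehog-responsive gene of the mesenchyme of gut and lung.

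The populations carried the markers of their labels. Gli1 itself was at 2.39 to 14.9 CPM in the Gli1+ libraries and at 0 to 0.0584 CPM in the stellate libraries. It passed as higher in uninjured Gli1+ cells and did not pass after BDL (limma BH-adjusted p threshold of 0.05). Lrat, the enzyme that stores vitamin A as ester, was at 5.16 to 35.9 CPM in Gli1+ libraries and 1832 to 2784 CPM in stellate libraries. In Gli1+ cells all 16 stellate markers were lower after BDL and 15 of them in uninjured liver (limma BH-adjusted p under 0.05), and of 16 portal fibroblast markers 13 were higher after BDL and 15 in uninjured liver. All 12 mesothelial markers were higher in Gli1+ cells in both states, with summed levels of 4891.5 to 12513 CPM in Gli1+ libraries and 5.50 to 84.2 CPM in stellate libraries. Of all genes, 4.44% were higher and 2.36% lower after BDL, and 8.06% higher and 3.02% lower in uninjured liver. Msln, Upk3b, Upk1b, Lrrn4, Muc16, Gpm6a and Bnc1 of the mesothelial list would not have passed the filter on stellate libraries alone. Clec3b and Mfap5 of the portal fibroblast list would not have either. Their calls as higher are not independent of the filter. Cholangiocyte markers, which share Krt19 and Sox9 with other lists used here, summed to 3345 to 16471 CPM in Gli1+ libraries and 4.01 to 759 CPM in stellate libraries. A pair of libraries stood apart: replicate 1 of uninjured stellate cells had 14227 CPM of macrophage markers, against 85.2 to 4453 CPM in the others, and replicate 2 of Gli1+ cells after BDL had 21783 CPM of hepatocyte markers, against 143 to 3877 CPM in the others. Total reads ranged from 11261775 to 19180370 per library.

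RefSeq promoter windows are shown for 4 of the 10 genes, Lhx2, Hand2, Tcf21 and Foxf2. They set genes that passed as lower in Gli1+ cells in both states beside 1 with no read in stellate cells. Windows of the other members are not shown, and nothing is said here of their promoters. Each line gives the 250 bases before the RefSeq start on GRCm38.p6, read 5′ to 3′ along the gene's strand, with capitals marking every match, on either strand, to an E-box (CANNTG), a GATA site (AGATAA), a forkhead site (GTAAACA), a LIM homeodomain site (TAATTA) or a TATA box (TATAAA).
Lhx2, chr2:38339031-38339280, plus strand: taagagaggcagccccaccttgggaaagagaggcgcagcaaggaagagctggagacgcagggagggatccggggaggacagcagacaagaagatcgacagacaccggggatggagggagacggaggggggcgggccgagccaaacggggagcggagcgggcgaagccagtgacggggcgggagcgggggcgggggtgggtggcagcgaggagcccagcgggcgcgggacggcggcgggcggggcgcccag
Hand2, chr8:57320733-57320982, plus strand: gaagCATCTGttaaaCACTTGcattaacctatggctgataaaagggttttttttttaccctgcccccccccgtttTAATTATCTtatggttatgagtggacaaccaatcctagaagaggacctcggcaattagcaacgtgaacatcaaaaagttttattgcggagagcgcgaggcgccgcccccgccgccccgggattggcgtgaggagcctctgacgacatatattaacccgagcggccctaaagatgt
Tcf21, chr10:22820144-22820393, minus strand: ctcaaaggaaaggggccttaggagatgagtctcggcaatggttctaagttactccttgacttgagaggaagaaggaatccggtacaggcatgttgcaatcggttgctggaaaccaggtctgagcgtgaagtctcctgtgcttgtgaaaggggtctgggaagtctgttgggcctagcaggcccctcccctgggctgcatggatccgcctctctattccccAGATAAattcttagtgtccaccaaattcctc
Foxf2, chr13:31625566-31625815, plus strand: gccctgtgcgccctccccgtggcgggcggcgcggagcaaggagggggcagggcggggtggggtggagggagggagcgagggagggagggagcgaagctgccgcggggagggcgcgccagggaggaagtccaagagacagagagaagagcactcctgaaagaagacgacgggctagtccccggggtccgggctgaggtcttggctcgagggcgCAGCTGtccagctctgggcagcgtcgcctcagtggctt
The windows of Lhx2 and Foxf2 were rich in G and C, at 72.8% and 71.6% with 25 and 21 CpG dinucleotides, whereas those of Hand2 and Tcf21 had 49.2% and 52.4% with 15 and 5. The median of 32851 mouse promoter windows of this length was 52.4% with 6 CpG. In the Hand2 window both E-boxes lay 246 and 235 bases before the start, and a TAATTA at 175 bases overlapped a GATA match at 172 bases. The Tcf21 window held 1 GATA match 31 bases before the RefSeq start, the Foxf2 window 1 E-box 38 bases before its start, and the Lhx2 window no match. The GENCODE start of Tcf21 lies 31 bases upstream of the RefSeq start, so by GENCODE that match falls within the gene. Lhx2 had 2 windows listed, and the one closest to the GENCODE start is shown. An E-box was in 66.2% of all windows, the GATA letters in 9.99%, the LIM homeodomain letters in 4.84%, the forkhead letters in 3.17% and the TATA box in 12.4%, and a match describes the letters of the window only.

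**Figure D1:**
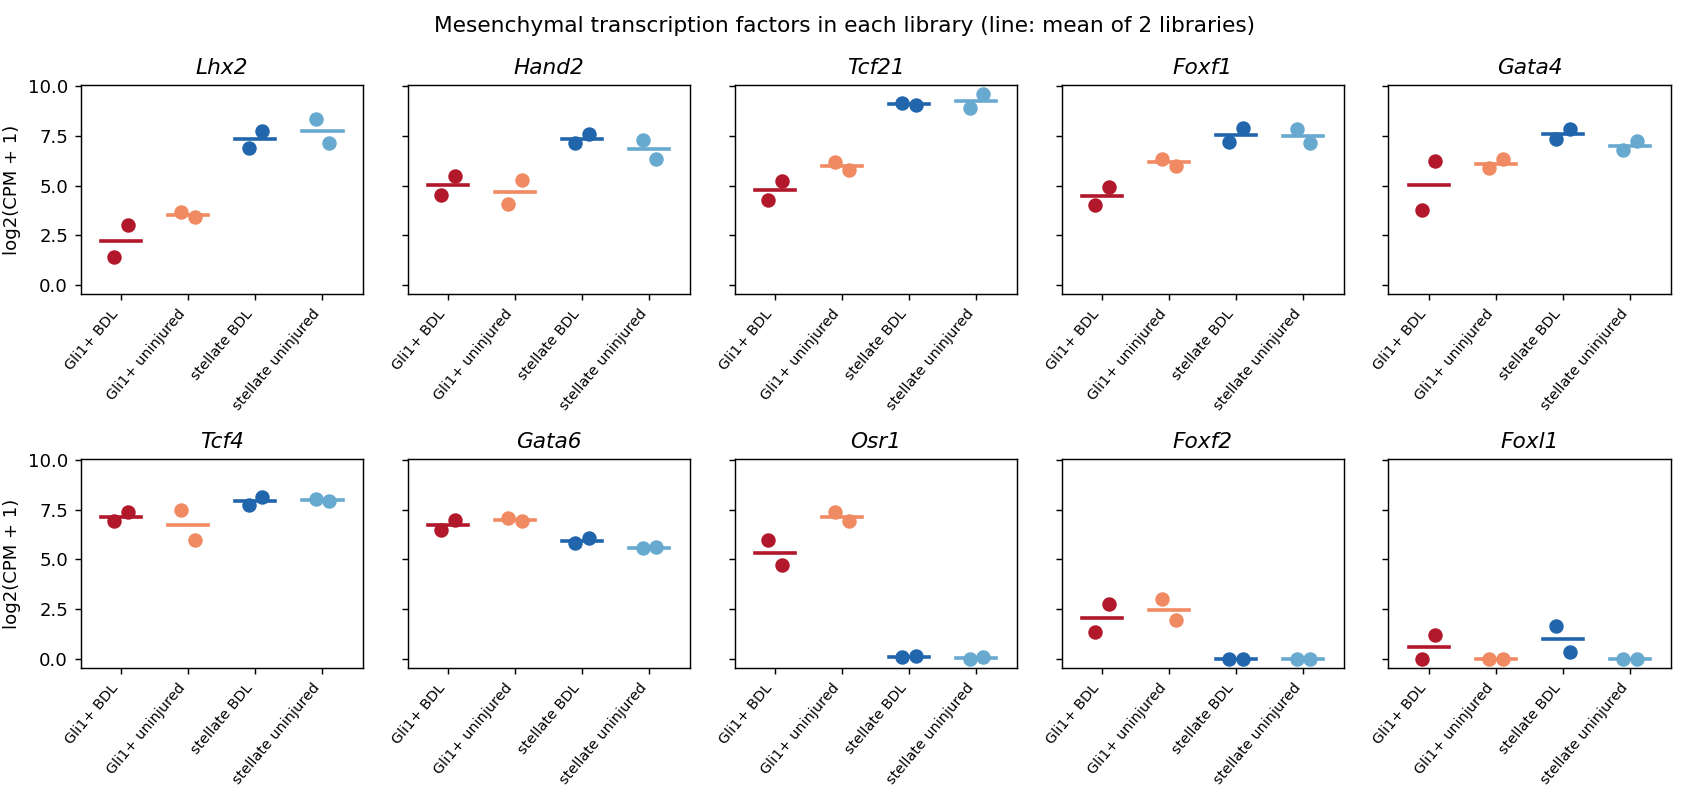
Level of each of the 10 genes as log2(CPM + 1) on the vertical axis, with 1 point per library, a line at the mean of the 2 libraries, and the 4 groups along the horizontal axis. The Gli1+ points of Lhx2, Hand2, Tcf21, Foxf1, Gata4 and Tcf4 lie below all stellate points, those of Gata6, Osr1 and Foxf2 above them, and those of Foxl1 overlap.

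Across all 8 libraries the factors split into 3 kinds. The 4 Gli1+ libraries lay above all 4 stellate libraries for Foxf2, Gata6 and Osr1, as they did for 13.2% of the genes tested. They lay below all 4 stellate libraries for Lhx2, Hand2, Tcf21, Foxf1, Gata4 and Tcf4, as they did for 5.75% of genes. Foxl1 overlapped. After BDL 5 of the 10 passed the threshold (limma BH-adjusted p under 0.05), Osr1 higher and Lhx2, Hand2, Tcf21 and Foxf1 lower in Gli1+ cells, beside 6.8% of all genes tested, 4.44% higher and 2.36% lower. In uninjured liver again 5 passed, Gata6 and Osr1 higher and Lhx2, Hand2 and Tcf21 lower, beside 11.1% of all genes, 8.06% higher and 3.02% lower. Within each state the libraries of the populations did not overlap for 9 of the 10 genes, 3 higher and 6 lower, as for 53.9% of all genes after BDL (34.8% higher and 19% lower) and 45.7% in uninjured liver (31.1% higher and 14.6% lower). The median log2 fold change of the 10 was -1.57 after BDL and -1.09 in uninjured liver, while that of all genes was 0.23 and 0.32, or 0.09 and 0.14 with TMM scaling, and single changes are to be read against those shifts. A comparison without both libraries that stood apart was added after seeing the data, and Foxl1 no longer passed the filter in it. It left only replicate 2 of uninjured stellate cells and only replicate 1 of Gli1+ cells after BDL, so it gives no spread for those groups. The log2 fold changes of Gli1+ over stellate cells in it were -3.80 for Gata4 and -2.81 for Hand2 after BDL. In uninjured liver they were -1.66 for Hand2 and 1.39 for Gata6. The Gata4 value rests on the 12.8 CPM of replicate 1 of Gli1+ cells after BDL. In bulk RNA, fewer cells of a type and less RNA per cell cannot be told apart, and this holds for every level given here.

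**Figure D2:**
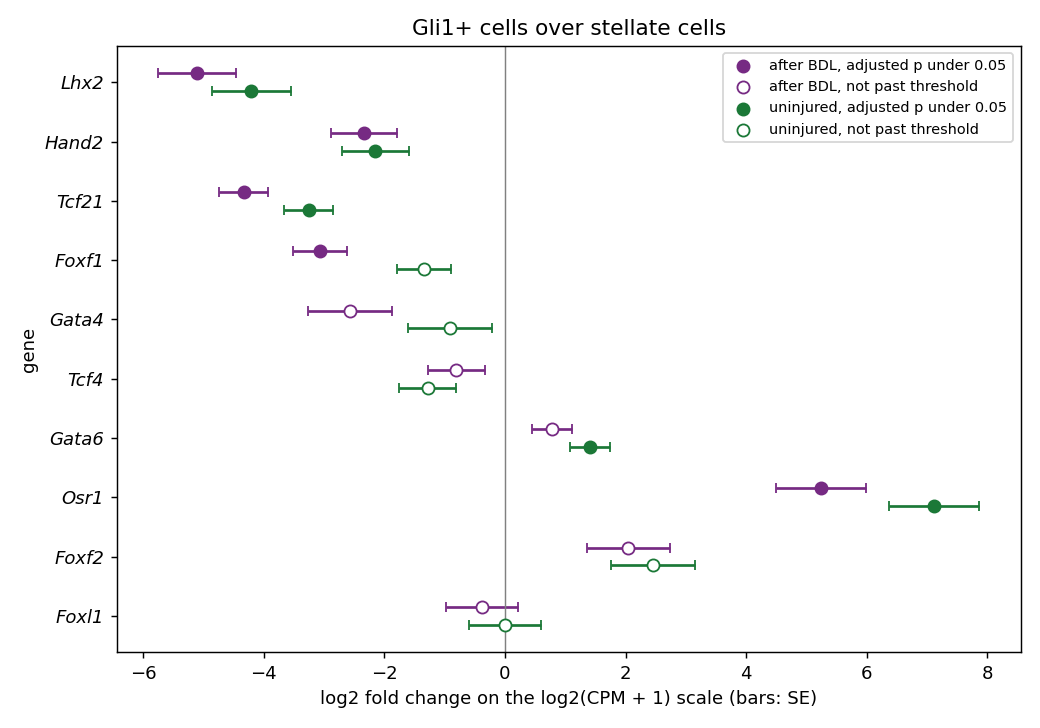
Log2 fold change of Gli1+ cells over stellate cells on the log2(CPM + 1) scale (horizontal axis) for each gene (vertical axis), after BDL and in uninjured liver, with bars for the standard error; filled points passed a limma BH-adjusted p of 0.05. Lhx2, Hand2 and Tcf21 lie left of 0 in both states with filled points, Osr1 lies right of it with filled points, and Foxf1 is filled only after BDL.

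Lhx2, the LIM homeodomain factor of resting stellate cells, was a low transcript in Gli1+ cells. It had 1.69 and 7.12 CPM in Gli1+ cells after BDL and 11.6 and 9.64 CPM in uninjured Gli1+ cells. Stellate cells had 119 and 216 CPM after BDL and 322 and 141 CPM in uninjured liver. Every Gli1+ library lay below every stellate library, and within Gli1+ cells both libraries after BDL lay below both uninjured ones, while the stellate groups overlapped. On the log2 scale, Gli1+ over stellate cells came to -5.11 ± 0.65 after BDL (SE; limma BH-adjusted p = 0.00354) and -4.21 ± 0.65 in uninjured liver (limma BH-adjusted p = 0.00507). The call after BDL was lost with limma-voom on the recovered reads and without replicate 2 of stellate cells after BDL, where the log2 fold change was -4.68, both at an adjusted p of 0.0557. LIM homeodomain proteins act through the adaptors Ldb1 and Ldb2 and are opposed by LIM-only proteins such as Lmo1. Of 11 tested relatives and partners of this family, none passed after BDL by limma, beside 6.8% of all genes. In uninjured Gli1+ cells Lmo1, Lhx9 and Isl1 were higher and Ldb2 lower, beside 8.06% and 3.02% of all genes. Lhx9, the closest relative of Lhx2, had 4.11 and 8.02 CPM in Gli1+ cells after BDL, 5.51 and 29.2 CPM in uninjured Gli1+ cells and no read in the 4 stellate libraries, and its log2 fold change in uninjured liver was 3.81 ± 0.85 (limma BH-adjusted p = 0.0241). Lhx2 and Lhx9 thus lay on opposite sides. The longest identical run between a transcript of Lhx2 and one of Lhx9 was 17 bases.

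Tcf21, a bHLH factor of the mesenchyme of lung, kidney, spleen and heart, was per exon length the highest of the 10 genes in stellate cells. It had 18.4 and 37.1 CPM in Gli1+ cells after BDL and 71.5 and 54.9 CPM in uninjured Gli1+ cells. In stellate cells it had 566 and 527 CPM after BDL and 478 and 768 CPM in uninjured liver. No Gli1+ library came near the stellate range, and the Gli1+ libraries after BDL both lay below the uninjured ones. Gli1+ over stellate cells gave a log2 fold change of -4.33 ± 0.41 after BDL (limma BH-adjusted p = 0.00104) and -3.25 ± 0.41 in uninjured liver (limma BH-adjusted p = 0.0019). After BDL it passed in all 19 alternative settings tried. In uninjured liver it passed in 18 of 19, as did Lhx2 and Osr1, the exception being a fit of the 4 uninjured libraries alone (limma BH-adjusted p = 0.116 for each), in which no gene of the 16446 passed and 3020 had an unadjusted p under 0.05.

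Hand2, a bHLH factor of heart, limb and neural crest, was also lower in Gli1+ cells, though less evenly measured. It had 22.4 and 44.2 CPM in Gli1+ cells after BDL and 15.9 and 37.3 CPM in uninjured Gli1+ cells, against 141 and 189 CPM in stellate cells after BDL and 158 and 79.1 CPM in uninjured stellate cells. The populations did not overlap, and BDL and uninjured libraries overlapped within each. Its log2 fold change was -2.34 ± 0.55 after BDL (limma BH-adjusted p = 0.0402) and -2.15 ± 0.55 in uninjured liver (limma BH-adjusted p = 0.0408). Both calls were close to the threshold: they were kept in 11 and 7 of 19 settings, and edgeR on the recovered reads gave adjusted p-values of 0.074 and 0.0559. Leaving out any of the 4 BDL libraries ended the call after BDL, with log2 fold changes of -2.81 to -1.86. In uninjured liver it ended without any of the 4 BDL libraries, which enter through the shared spread, and without replicate 1 of uninjured Gli1+ cells (-1.56) or replicate 1 of uninjured stellate cells (-1.66). With a replicate block the adjusted p-values were 0.051 and 0.0506.

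The lncRNA Hand2os1, transcribed from the opposite strand across the Hand2 gene, was likewise lower in Gli1+ than in stellate cells. It had 26.1 and 22.4 CPM in Gli1+ cells after BDL and 37.3 and 43.5 CPM in uninjured Gli1+ cells, against 219 and 182 CPM in stellate cells after BDL and 262 and 345 CPM in uninjured stellate cells. Within each population both libraries after BDL lay below both uninjured ones, where those of Hand2 overlapped. Its log2 fold change was -2.99 ± 0.33 after BDL (limma BH-adjusted p = 0.00181) and -2.87 ± 0.33 in uninjured liver (limma BH-adjusted p = 0.00134). Its exons cover 461 exon bases of Hand2, 19.6% of them, and without a stated strand setting reads of the overlap cannot be assigned to one gene.

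Among 17 other bHLH genes and their dimer partners, after BDL Msc, Heyl and Id3 were lower and none higher in the Gli1+ population. In uninjured liver Hand1 and Twist1 were higher and Heyl and Hes1 lower. Of all genes tested, 4.44% were higher and 2.36% lower after BDL, and 8.06% higher and 3.02% lower in uninjured liver. Hand1, the paralog of Hand2, had 1.29 and 4.31 CPM in Gli1+ cells after BDL and 7.90 and 8.73 CPM in uninjured Gli1+ cells, with no read in the 4 stellate libraries. Against 3 reads over the group the Gli1+ level was at least 29.1-fold higher after BDL, where it did not pass (limma BH-adjusted p = 0.154), and at least 99.6-fold higher in uninjured liver (limma BH-adjusted p = 0.0152). Twist1, a bHLH factor of cranial and limb mesenchyme, had 4.92 and 11.97 CPM in Gli1+ cells after BDL and 6.22 and 10.5 CPM in uninjured Gli1+ cells. In stellate cells it had 9.57 and 13.8 CPM after BDL and no read in uninjured liver. Gli1+ and stellate libraries overlapped after BDL (log2 fold change -0.51 ± 0.80, limma BH-adjusted p = 0.827) and not in uninjured liver (3.19 ± 0.80, limma BH-adjusted p = 0.0363). Id3, an inhibitor that binds E proteins and keeps them off DNA, had 295 and 650 CPM in Gli1+ cells after BDL against 1806 and 1914 CPM in stellate cells after BDL (log2 fold change -2.08 ± 0.43, limma BH-adjusted p = 0.0227).

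Tcf4 encodes an E protein, the partner with which tissue-restricted bHLH proteins pair, and is a different gene from Tcf7l2, the Wnt effector also called TCF4. It had 119 and 165 CPM in Gli1+ cells after BDL and 176 and 62.3 CPM in uninjured Gli1+ cells, against 214 and 281 CPM in stellate cells after BDL and 266 and 246 CPM in uninjured stellate cells. The Gli1+ libraries were all below the stellate ones, by a log2 fold change of -0.81 ± 0.47 after BDL (limma BH-adjusted p = 0.425) and -1.28 ± 0.47 in uninjured liver (limma BH-adjusted p = 0.134). Neither passed. Without replicate 1 of uninjured Gli1+ cells the uninjured difference was -2.02 (limma BH-adjusted p = 0.0321). Tcf4 is also strongly expressed by plasmacytoid dendritic cells and endothelium. Siglech, a defining gene of those dendritic cells, was at 0 to 3.59 CPM in Gli1+ libraries and 0 to 9.79 CPM in stellate libraries. The 10 dendritic markers listed, Siglech among them, summed to 361 to 1581 CPM in Gli1+ libraries and 207 to 477 CPM in stellate libraries. Of that list Ly6d passed as higher in Gli1+ cells in both states, at 130 to 1434 CPM against 0.313 to 4.83 CPM in stellate libraries. Irf8 passed as lower in uninjured Gli1+ cells. The 18 endothelial markers summed to 403 to 2195 CPM in Gli1+ libraries and 2442 to 5472 CPM in stellate libraries. Much of the stellate sum came from Eng, at 1533 to 2312 CPM in stellate libraries. Without Eng, a sum taken after seeing the data, the other 17 markers had 1068 and 1955 CPM in Gli1+ cells after BDL and 1397.5 and 288 CPM in uninjured Gli1+ cells, against 3661 and 2579 CPM in stellate cells after BDL and 872 and 246 CPM in uninjured stellate cells. Of the 18 markers, 4 had a positive log2 fold change of Gli1+ over stellate cells after BDL (median -0.53) and 14 in uninjured liver (median 1.30). The part of dendritic and endothelial cells in the Tcf4 level was not tested.

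Foxf1, the forkhead gene of visceral mesenchyme, was lower in Gli1+ cells after BDL and its libraries were also separate in uninjured liver. It lies at chr8:121084386-121088144 on the plus strand (GRCm38). Gli1+ cells had 15.4 and 29.5 CPM after BDL and 79.7 and 62.8 CPM in uninjured liver, and stellate cells had 147 and 237 CPM after BDL and 232 and 141 CPM in uninjured liver. All Gli1+ libraries lay below all stellate ones, and the stellate groups overlapped each other. The log2 fold change of Gli1+ over stellate cells was -3.07 ± 0.45 after BDL (limma BH-adjusted p = 0.00615) and -1.34 ± 0.45 in uninjured liver (limma BH-adjusted p = 0.0989). The uninjured difference passed with limma-voom (adjusted p = 0.0422) and DESeq2 (adjusted p = 0.0198) on the recovered reads. Those were the only 2 of 19 settings in which it passed, and edgeR on the recovered reads did not call it. The call after BDL ended without replicate 1 of Gli1+ cells after BDL (-2.62, limma BH-adjusted p = 0.072) and without replicate 2 of stellate cells after BDL (-2.73, limma BH-adjusted p = 0.0755).

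Fendrr, a lncRNA that starts 1275 bases from Foxf1 on the opposite strand and is known for its part in mouse lateral mesoderm, was lower in Gli1+ cells in both states. It had 5.16 and 19.4 CPM in Gli1+ cells after BDL and 66.1 and 30.0 CPM in uninjured Gli1+ cells. In stellate cells it had 168 and 129 CPM after BDL and 204 and 327 CPM in uninjured liver. Its log2 fold change was -3.72 ± 0.62 after BDL (limma BH-adjusted p = 0.01) and -2.51 ± 0.62 in uninjured liver (limma BH-adjusted p = 0.0348). The Foxf1 locus thus held a pair of transcripts from opposite strands in the same order of populations, and no exon of one overlaps an exon of the other.

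Foxf2, the paralog of Foxf1 known from gut mesenchyme and brain pericytes, went the other way at a low level. It had 1.53 and 5.75 CPM in Gli1+ cells after BDL and 6.93 and 2.80 CPM in uninjured Gli1+ cells, or 115 and 127 reads over the groups. No read fell in any of the 4 stellate libraries, which allows up to 0.104 CPM over the group after BDL and 0.0844 CPM in uninjured liver (3 reads; counting error only). The Gli1+ level of Foxf2 was thus at least 38.1-fold higher after BDL and at least 52.3-fold higher in uninjured liver. On the log2(CPM + 1) scale, which understates such a low gene, it did not pass in either state (limma BH-adjusted p = 0.132 after BDL and 0.0564 in uninjured liver). With DESeq2 on the recovered reads it passed in both (adjusted p = 0.0391 after BDL and 0.0139 in uninjured liver), and in uninjured liver also with a pseudocount of 0.25 (limma BH-adjusted p = 0.032) and with limma-voom (adjusted p = 0.0366). Those were its only calls: 1 of 19 settings after BDL and 3 of 19 in uninjured liver. Neither state passed with edgeR on the recovered reads, nor did the BDL state with limma-voom. The longest identical run between transcripts of Foxf1 and Foxf2 was 41 bases, and how reads matching both were counted is not stated.

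Foxl1, known from the mouse gut for marking Wnt-producing subepithelial cells, was almost absent. It lies 39795 bases from Foxf1 on chromosome 8. It had 0 and 1.32 CPM in Gli1+ cells after BDL and no read in uninjured Gli1+ cells, and 2.10 and 0.255 CPM in stellate cells after BDL and no read in uninjured stellate cells. Reads were seen only in libraries after BDL, 22 over the Gli1+ group, all in replicate 2, and 39 over the stellate group, 36 of them in replicate 1. Against 3 reads in the uninjured group the level after BDL was at least 7.25-fold higher for Gli1+ cells and at least 15.98-fold higher for stellate cells, but without that 1 library of each group no such bound can be given, and neither BDL response passed (limma BH-adjusted p = 0.815 in Gli1+ cells and 0.584 in stellate cells).

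Of 15 other forkhead genes tested, after BDL 1 was higher and none lower in the Gli1+ population, beside 4.44% and 2.36% of all genes. In uninjured liver 5 were higher and 1 lower, beside 8.06% and 3.02% of all genes. The median log2 fold change of the 15 was 0.58 after BDL and 1.95 in uninjured liver. Foxq1, a forkhead factor of epithelia, had 21.5 and 45.3 CPM in Gli1+ cells after BDL and 16.5 and 35.7 CPM in uninjured Gli1+ cells, against 0.117 and 0 CPM in stellate cells after BDL and no read in uninjured stellate cells. It passed in both states, with a log2 fold change of 4.93 ± 0.80 after BDL (limma BH-adjusted p = 0.0093) and 4.66 ± 0.80 in uninjured liver (limma BH-adjusted p = 0.00808). Cholangiocyte and mesothelial markers, both epithelial, were also higher in sum in Gli1+ than in stellate libraries, at the values given above. Their part in the Foxq1 level was not tested. Foxp2 (log2 fold change 3.23 ± 0.64, limma BH-adjusted p = 0.0152) and Foxp4 (2.69 ± 0.59, limma BH-adjusted p = 0.0223) were higher and Foxn3 lower (-1.42 ± 0.38, limma BH-adjusted p = 0.0446) in uninjured Gli1+ cells.

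The GATA pair of the list had opposite order in the populations. Gata4 (chr14:63198922-63271692, minus strand) had 12.8 and 75.4 CPM in Gli1+ cells after BDL and 58.3 and 79.4 CPM in uninjured Gli1+ cells, against 162 and 228 CPM in stellate cells after BDL and 110.1 and 149.8 CPM in uninjured stellate cells. Replicate 1 of Gli1+ cells after BDL was far below the other Gli1+ libraries, and no Gli1+ library reached a stellate one. Gli1+ over stellate cells gave a log2 fold change of -2.57 ± 0.69 after BDL (limma BH-adjusted p = 0.0654) and -0.91 ± 0.69 in uninjured liver (limma BH-adjusted p = 0.477), neither past the threshold. After BDL the difference passed without replicate 2 of Gli1+ cells, the library high in hepatocyte markers (-3.80, limma BH-adjusted p = 0.0174), with DESeq2 on the recovered reads (adjusted p = 0.0391) and with a replicate block (limma BH-adjusted p = 0.0359). Without replicate 1 of Gli1+ cells after BDL it was -1.34 and did not pass. Liver sinusoidal endothelium also expresses Gata4; the endothelial markers stood as given above for Tcf4, and their part was not tested.

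Gata6, known from vascular smooth muscle, mesothelium and endoderm, had 88.3 and 125 CPM in Gli1+ cells after BDL and 132 and 119.6 CPM in uninjured Gli1+ cells. Stellate cells had 56.0 and 65.5 CPM after BDL and 46.2 and 47.4 CPM in uninjured liver. No library of one population overlapped the other, and the widest gap between replicates was that of Gli1+ cells after BDL. The log2 fold change was 0.78 ± 0.34 after BDL (limma BH-adjusted p = 0.242) and 1.41 ± 0.34 in uninjured liver (limma BH-adjusted p = 0.0305). The uninjured call was a narrow one: it was kept in 6 of 19 settings and lost with TMM scaling (1.18, limma BH-adjusted p = 0.0638), with the size factors of DESeq2 (1.20, limma BH-adjusted p = 0.0602) and with edgeR on the recovered reads (1.19, adjusted p = 0.0906). It was also lost without either stellate BDL replicate (1.41), either uninjured Gli1+ replicate (1.33 without replicate 1 and 1.48 without replicate 2) or either uninjured stellate replicate (1.39 without replicate 1 and 1.43 without replicate 2).

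Within a library, the balance of the paralogs needs no scaling between libraries. Per kb of exon, Gata6 made up 80.5% and 49.8% of the Gata6 and Gata4 sum after BDL in Gli1+ cells, against 57.6% and 47.5% in uninjured Gli1+ cells. In stellate cells it made up 17.2% and 14.7% after BDL and 20.1% and 15.96% in uninjured liver. The 4 Gli1+ libraries were thus all above the 4 stellate libraries. Foxf2 made up 9.23% and 16.6% of the Foxf2 and Foxf1 sum after BDL in Gli1+ cells, against 8.16% and 4.35% in uninjured Gli1+ cells, and none in stellate cells. Hand1, a pair chosen after its values were seen, made up 6.35% and 10.3% of the Hand1 and Hand2 sum after BDL in Gli1+ cells, against 36.9% and 21.6% in uninjured Gli1+ cells, and none in stellate cells. These shares are descriptions without a test. Gata5, a GATA factor of heart and gut, was on the side of Gata6: it had 42.2 and 38.4 CPM in Gli1+ cells after BDL and 26.3 and 65.0 CPM in uninjured Gli1+ cells, against 0.525 and 0.850 CPM in stellate cells after BDL and 4.53 and 5.84 CPM in uninjured stellate cells. Gata5 passed in both states, with a log2 fold change of 4.62 ± 0.71 after BDL (limma BH-adjusted p = 0.00723) and 2.79 ± 0.71 in uninjured liver (limma BH-adjusted p = 0.0387). It was the only one of 6 tested GATA and FOG genes to pass, beside 6.8% of all genes after BDL and 11.1% in uninjured liver.

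**Figure D3:**
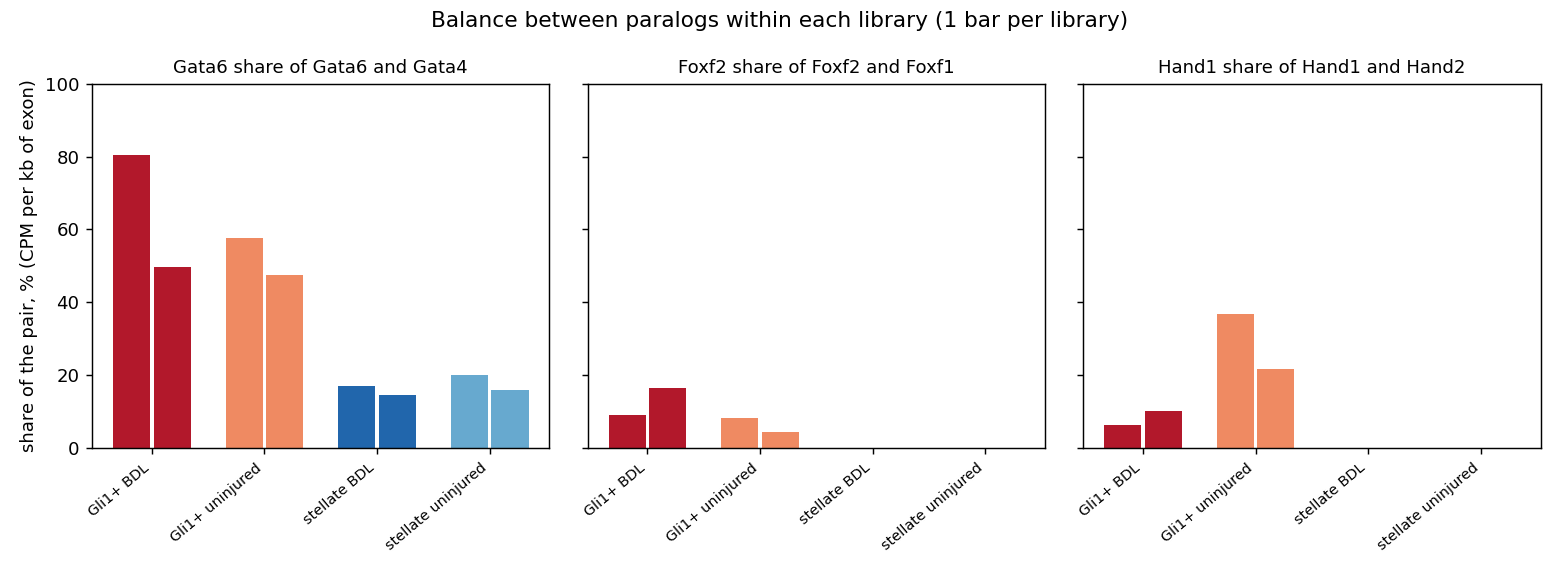
Share of 1 paralog in the sum of a pair, in percent of CPM per kb of exon (vertical axis, from 0 to 100), with 1 bar per library and the 4 groups along the horizontal axis. Gata6 holds 47.5% to 80.5% of its pair in Gli1+ libraries and 14.7% to 20.1% in stellate libraries, and Foxf2 and Hand1 have no bar in stellate libraries because they had no read there.

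Osr1, an odd-skipped zinc finger gene of embryonic lateral plate and connective tissue, had the largest fitted difference between the populations of the 10 genes. It lies at chr12:9570116-9581500 on the plus strand. It had 60.9 and 25.5 CPM in Gli1+ cells after BDL and 168 and 119 CPM in uninjured Gli1+ cells. Stellate cells had 2 reads over the group after BDL, 0.0584 and 0.0849 CPM, and 1 read in uninjured liver, 0 and 0.0521 CPM. Per exon length Osr1 was the highest of the 10 genes in uninjured Gli1+ cells, at 81.3 and 57.6 CPM per kb. The ratio of CPM over the groups was 587 after BDL (exact 95% interval 162 to 4850.5) and 4909 in uninjured liver (exact 95% interval 880.5 to 193929), intervals that cover counting error only. The log2 fold change was 5.24 ± 0.75 after BDL (limma BH-adjusted p = 0.00569) and 7.12 ± 0.75 in uninjured liver (limma BH-adjusted p = 0.000935). The call after BDL ended without replicate 1 of Gli1+ cells after BDL (4.63, limma BH-adjusted p = 0.0804) and without replicate 1 (5.22, limma BH-adjusted p = 0.061) or replicate 2 (5.26, limma BH-adjusted p = 0.052) of stellate cells after BDL. Osr2, its only paralog, had 4.76 and 3.71 CPM in Gli1+ cells after BDL and 49.4 and 2.97 CPM in uninjured Gli1+ cells, against no read in stellate cells after BDL and 0.0612 and 0 CPM in uninjured stellate cells, and did not pass (limma BH-adjusted p = 0.277 after BDL and 0.0598 in uninjured liver). Mesothelial cells are known to express Wt1 and Gata6, and the mesothelial markers were higher in sum in every Gli1+ library, at the values given above. The 10 smooth muscle markers listed summed to 1160 to 1414 CPM in Gli1+ libraries and 372 to 930 CPM in stellate libraries. Of these, 3 passed as higher and 1 as lower in Gli1+ cells after BDL, and 5 as higher and 1 as lower in uninjured liver. The part of mesothelial and smooth muscle cells in the Osr1 and Gata6 levels was not tested.

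After BDL no member passed the test within either population. In Gli1+ cells 0 of the 10 passed by limma, as did 0 of 16446 genes (0%). By edgeR, limma-voom and DESeq2 0 of the members passed, while DESeq2 called 406 of the 16446 genes. An unadjusted p under 0.05 (limma) was found for 3 members (Foxf1, Tcf21 and Osr1), beside 1812 of the 16446 genes. The 2 libraries after BDL did not overlap the uninjured ones for Lhx2, Tcf21, Foxf1 and Osr1, all lower after BDL, beside 41.3% of all genes with no overlap, 16.2% lower. Foxf1 had a log2 fold change of -1.68 ± 0.45 (limma BH-adjusted p = 0.163), the lowest adjusted p of the 10. Osr1 had -1.81 ± 0.75 (limma BH-adjusted p = 0.411), Lhx2 -1.31 ± 0.65 (limma BH-adjusted p = 0.534) and Tcf21 -1.23 ± 0.41 (limma BH-adjusted p = 0.268). Gata4 had -1.09 ± 0.69 (limma BH-adjusted p = 0.674), with libraries that overlapped. In the same Gli1+ libraries the portal fibroblast markers summed to 5527 and 4251 CPM after BDL against 14238 and 8985 CPM in uninjured liver (median log2 fold change -1.49), and the mesothelial markers to 8701 and 4891.5 CPM after BDL against 5277 and 12513 CPM in uninjured liver (median -1.13). Cholangiocyte markers summed to 16471 and 7894 CPM after BDL against 4568 and 3345 CPM in uninjured liver (median 1.76), and hepatocyte markers stood at 3877 and 21783 CPM after BDL against 1651 and 420 CPM in uninjured liver (median 4.25). The part of these cells in the levels of the 10 genes was not tested.

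In stellate cells 0 of the 10 passed by limma, beside 37 of 16446 genes (0.225%), all higher after BDL. By edgeR, limma-voom and DESeq2 0 of the members passed, while DESeq2 called 1006 of the 16446 genes. No member had an unadjusted p under 0.05 (limma), beside 1968 of the 16446 genes that did. Foxl1, Gata4, Gata6 and Osr1 had both BDL libraries above both uninjured ones, beside 39.6% of genes with no overlap, 27.4% higher, and for Osr1 that rests on 3 reads in all. The log2 fold changes ran from -0.41 for Lhx2 to 0.98 for Foxl1, and those of Foxf1 (0.04 ± 0.45) and Tcf21 (-0.15 ± 0.41) lay within their standard errors. The difference of the responses was tested as an interaction: 0 of the 10 passed by limma, beside 2 of 16446 genes (0.0122%). By edgeR, limma-voom and DESeq2 also 0 members passed, while DESeq2 called 389 of the 16446 genes. Foxf1 had an interaction of -1.72 ± 0.63 on the log2 scale (limma BH-adjusted p = 0.569). It was the only member with an unadjusted p under 0.05 (limma), beside 1230 of the 16446 genes. The BDL responses of the 10 genes are therefore not shown to differ between the populations.

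**Figure D4:**
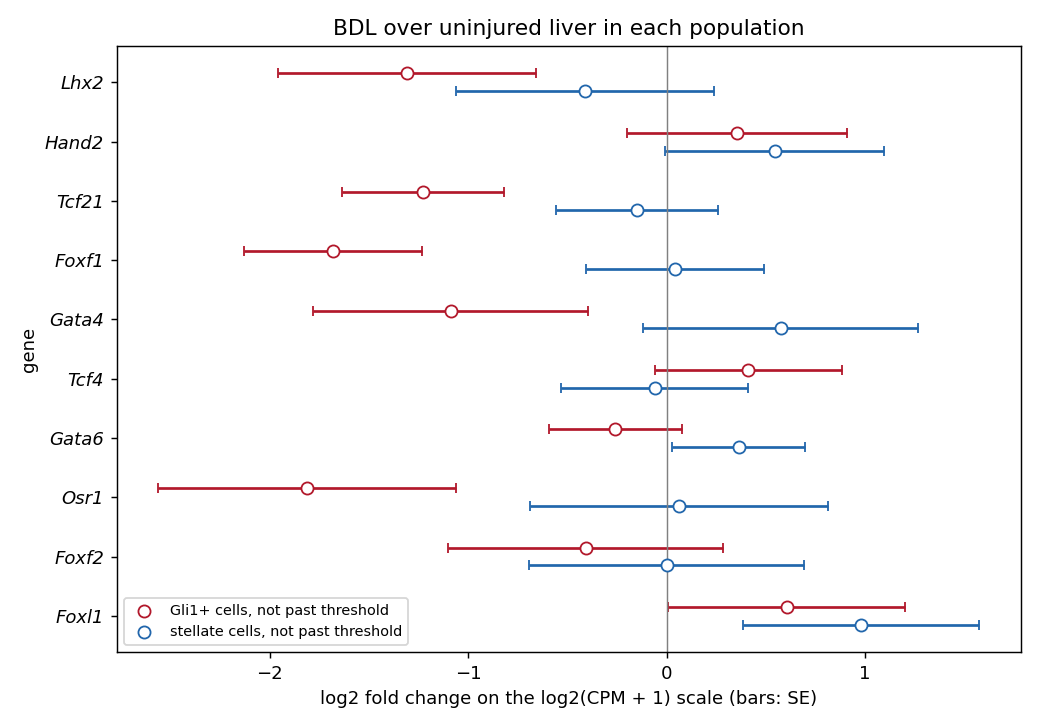
Log2 fold change of BDL over uninjured liver on the log2(CPM + 1) scale (horizontal axis) for each gene (vertical axis) in Gli1+ cells and in stellate cells, with bars for the standard error. No point passed the threshold; Foxf1, Osr1, Tcf21 and Lhx2 lie lowest in Gli1+ cells, between -1.81 and -1.23, while stellate points lie between -0.41 and 0.98.

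Other mesenchymal transcription factors outside the 10 were divided between the populations too. Of 34 tested, after BDL 4 were higher and 5 lower in the Gli1+ population, and in uninjured liver 9 were higher and 5 lower, beside the shares of all genes given above. Wt1, a factor of mesothelium, had 88.3 and 95.5 CPM in Gli1+ cells after BDL and 129 and 375 CPM in uninjured Gli1+ cells, against 0.117 and 2.97 CPM in stellate cells after BDL and 0.122 and 6.99 CPM in uninjured stellate cells. Ebf1, a factor of adipose and connective tissue, had 28.7 and 23.9 CPM in Gli1+ cells after BDL and 165 and 70.1 CPM in uninjured Gli1+ cells, against 0.525 and 1.53 CPM in stellate cells after BDL and 1.10 and 0.261 CPM in uninjured stellate cells. Wt1 is in the mesothelial list and Sox9, also higher, in the cholangiocyte list, and the part of those cells in their levels was not tested. Ets1, an ETS factor, had 66.98 and 83.99 CPM in Gli1+ cells after BDL and 97.1 and 30.0 CPM in uninjured Gli1+ cells, against 515 and 452 CPM in stellate cells after BDL and 444 and 713 CPM in uninjured stellate cells. Tbx2, a T-box factor, passed as lower after BDL (-3.41 ± 0.63, limma BH-adjusted p = 0.0148), and Heyl, a target of Notch signalling, passed as lower in both states.

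**Figure D5:**
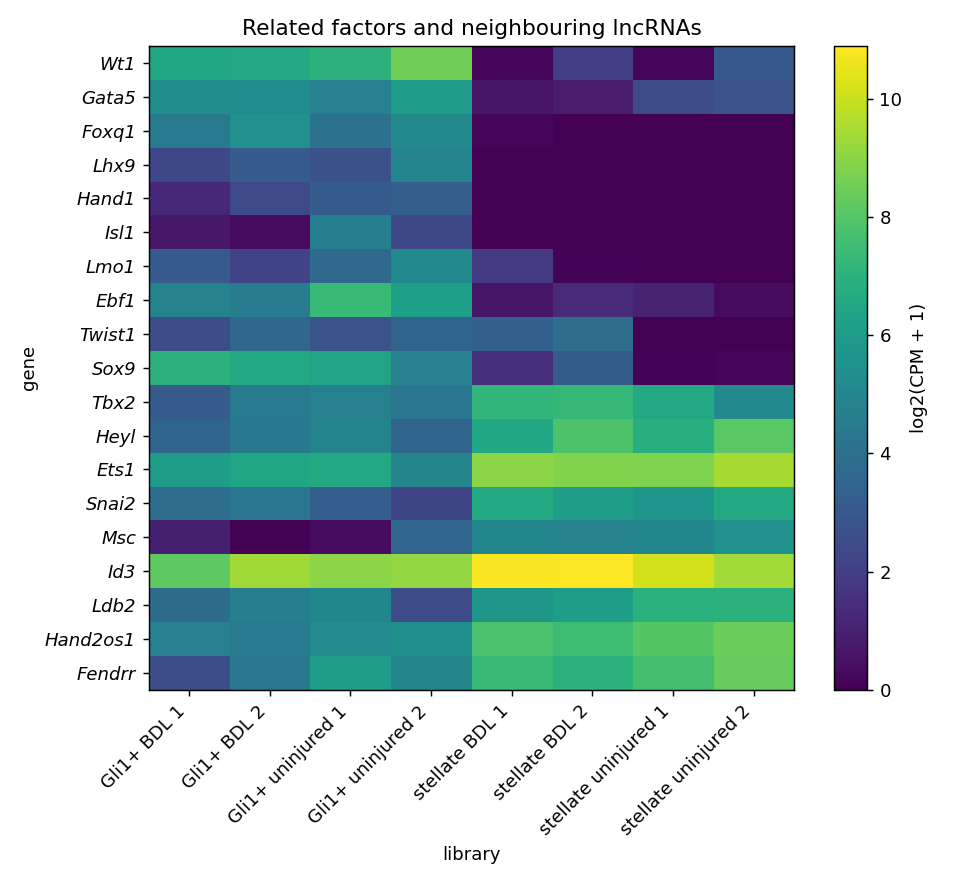
Heat map of log2(CPM + 1) for related factors and the neighbouring lncRNAs (rows) in each library (columns, Gli1+ libraries left, stellate libraries right); lighter colours are higher. Wt1, Gata5, Foxq1, Lhx9, Hand1 and Ebf1 are lighter in Gli1+ libraries and Ets1, Heyl, Snai2, Hand2os1 and Fendrr in stellate libraries.

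Hedgehog signalling is what the Gli1 label reads, and Foxf1 is one of its known targets in visceral mesenchyme. Of 8 tested Hedgehog genes, after BDL Gli2 was higher and Hhip lower in the Gli1+ population, beside 4.44% and 2.36% of all genes. In uninjured liver Smo, Gli1 and Gli2 were higher and Hhip lower, beside 8.06% and 3.02% of all genes. Hhip, which binds and traps Hedgehog ligands, had 1.69 and 4.61 CPM in Gli1+ cells after BDL and 2.22 and 7.99 CPM in uninjured Gli1+ cells, against 279 and 243 CPM in stellate cells after BDL and 398 and 408 CPM in uninjured stellate cells. Hhip passed as lower in both states (log2 fold change -6.07 ± 0.58, limma BH-adjusted p = 0.00118 after BDL; -6.23 ± 0.58, limma BH-adjusted p = 0.000577 in uninjured liver), and Foxf1 after BDL.

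The genes with the profile most like each factor were found among 10297 genes by the root-mean-square difference of log2(CPM + 1), each gene centred on its own mean over 8 libraries. The nearest were Ifitm1 and Abcc9 for Lhx2 (differences of 0.47 and 0.56), Sod3 and Gucy1a1 for Tcf21 (0.31 and 0.34), and AU020206 and Prex2 for Hand2 (0.26 and 0.34). For the forkhead genes they were Adcyap1r1 and Mndal for Foxf1 (0.25 and 0.30), Crispld2 and Ang for Foxf2 (0.28 and 0.30), and Cpne2 and Plekhm3 for Foxl1 (0.29 and 0.33). They were Lpcat1 and Dagla for Gata4 (0.38 and 0.41), Fmc1 and Rpl15 for Gata6 (0.12 and 0.14), Sfrp4 and Vnn1 for Osr1 (0.29 and 0.30), and Rab8b and Rnf216 for Tcf4 (0.19 and 0.20). A small difference says little for a gene that varies little: the SD of the profile was 0.59 for Gata6 and 0.61 for Foxl1, against 2.44 for Lhx2 and 3.17 for Osr1.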

How the data were processed

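Per the labels' protocols, livers were digested enzymatically, cells were enriched on a gradient and sorted, and SMART-Seq2, a full-length cDNA method, was used for the libraries. The deposited values are CPM, in a column the headers name normalized counts. Per the submitters' processing notes, STAR 2.5.2b, featureCounts, FastQC, DESeq2 and mm10 were used, with no roles given; annotation, strandedness and the handling of multi-gene reads are not stated there. Each CPM column summed to 1000000 and 100% of its values were whole multiples of 1 read within 0.1 read, so reads were recovered for counts, floors of 3 reads and the count tests run as alternatives; 3 reads are 0.156 to 0.266 CPM per library.

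Of 30395 identifiers, 30214 matched GENCODE vM21 (GRCm38), which gave symbols, exon lengths and positions counted from 1; promoters are RefSeq's, GRCm38.p6. The limma-trend test (limma 3.58.1, R 4.3.3) was run on log2(CPM + 1) for all 8 libraries and 4 group means, with 4 residual degrees of freedom, BH adjustment over 16446 genes and a threshold of 0.05. Alternatives were TMM (edgeR 4.0.16) and DESeq2 1.42.0 size factors, a pseudocount of 0.25, no filter, a filter of 5 CPM, edgeR, limma-voom and DESeq2 on recovered reads, the 4 libraries compared alone, a replicate block and each library left out. The fit was tested on simulated data. Members and lists were chosen with earlier results of these data known. Of each list, up to 3 called genes per direction and contrast could be named, and the nearest 2 profiles of each member. PCR copies are not independent molecules, so intervals and floors cover counting error only.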

Additional observations from a re-analysis of the deposited data

Results flagged for a closer look

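The CPM of Osr1 after BDL lay in opposite directions in the 2 populations, with no overlap between libraries in either. Both Gli1+ libraries after BDL lay below both uninjured ones, and both stellate libraries after BDL lay above both uninjured ones. The difference of the responses, Gli1+ minus stellate, was -1.88 on the log2 scale. It did not pass when tested as an interaction (limma BH-adjusted p = 0.746). In stellate cells the levels are 2 reads over the group after BDL and 1 read in uninjured liver. The stellate direction rests on these 3 reads, with a fitted log2 fold change of 0.06 ± 0.75, so no stellate change is shown.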

How the results depend on the processing

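The count of members called after BDL (5) was 7 with DESeq2, 4 without a filter, 4 with edgeR and 4 with limma-voom, and 1 to 5 with 1 library left out: 1 without replicate 2 of stellate cells after BDL, 2 without replicate 1 of Gli1+ cells after BDL and 3 without replicate 1 of stellate cells after BDL. The count in uninjured liver (5) was 7 with DESeq2, 6 with a pseudocount of 0.25, 4 with TMM or DESeq2 size factors, 3 without a filter, 3 with edgeR, 3 without both libraries that stood apart, 0 with the 4 libraries compared alone, and 3 to 4 with 1 library left out. Over all genes, 1118 passed after BDL and 1822 in uninjured liver; other settings gave 369 to 1653 and 0 to 2996, and leaving out 1 library 145 to 1375 and 1022 to 1808. The BDL responses in Gli1+ and stellate cells (0 and 37 genes) ranged over 0 to 406 and 0 to 1006 in other settings and 0 to 5 and 0 to 219 with 1 library left out, and the interaction (2 genes) over 0 to 389 and 0 to 33; no member passed in any of them. Fitting with the replicate number as a block gave 5 and 4 members called and 943, 1566, 0, 18 and 0 genes in the cell comparisons (BDL, uninjured), the responses (Gli1+, stellate) and the interaction; the labels do not say that a number marks a shared animal, and the deviations of same-numbered libraries correlated at -0.05 to 0.11 in the pairs compared. No called value changed sign.

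Reversed directions were all of values that did not pass. The stellate response of Foxf1 (0.04) was -0.070 with TMM, -0.12 with DESeq2 size factors, -0.059 with edgeR, -0.088 with limma-voom and -0.12 with DESeq2. Without both libraries that stood apart, the Gli1+ response of Hand2 was -0.12 and the stellate response of Lhx2 0.18. Leaving out 1 library turned the sign within these ranges: Foxl1 between populations after BDL -1.03 to 0.23; Gli1+ responses of Hand2 -0.23 to 0.95, Foxf2 -1.12 to 0.30, Gata4 -2.32 to 0.15 and Tcf4 -0.33 to 1.16; stellate responses of Lhx2 -1.0 to 0.18, Tcf21 -0.49 to 0.19, Foxf1 -0.31 to 0.40 and Tcf4 -0.25 to 0.14; and interactions of Hand2 -0.78 to 0.40, Foxf2 -1.12 to 0.30, Foxl1 -1.03 to 0.23 and Tcf4 -0.27 to 1.21. The cause was not tested. The interaction could not be fitted with 4 libraries alone, and Foxl1 missed the filter in 4 settings. A gene with no read in a library may still be at up to 0.156 to 0.266 CPM there (3 reads).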
